A study of Rattus norvegicus with 138 samples.

Results

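The neurotrophins and their receptors were followed as a set of 7 genes chosen by name: the ligand genes Bdnf and Ntf3, the receptor genes Ntrk2, Ntrk3 and Ngfr, and Gfra1 and Ret, which encode the receptor of a neighboring growth factor family. Of these, 6 had a row among the 32883 genes of each table, and Gfra1 was not analysed here. RNA was sequenced from tissue punches of the nucleus of the solitary tract (NTS), the caudal ventrolateral medulla (CVLM) and the rostral ventrolateral medulla (RVLM), brainstem regions that together set sympathetic outflow and blood pressure. The rats were untreated females of 2 inbred strains, the spontaneously hypertensive rat (SHR/NHsd, SHR) and its normotensive Wistar-Kyoto control (WKY/NHsd, WKY). There were 5 WKY rats and 5 SHRs aged 8 wk, 4 and 5 aged 10 wk, and 3 and 6 at each of 12, 16 and 24 wk, 46 rats in all, and each gave 1 library per region from bilateral punches. High blood pressure and every other inherited difference between the strains cannot be told apart in this design. Values are given as CPM, a gene's count per 1000000 assigned reads of a library after scaling by the trimmed mean of M values (TMM). Tests were edgeR's quasi-likelihood tests, and a comparison was called where p, adjusted over all genes kept by Benjamini-Hochberg, was under 0.05. Of the 6 genes, 6 passed the filter on low values in the NTS and 5 in either ventrolateral region, where Ntf3 was left out.

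Neurotrophins are secreted proteins that support the survival of neurons and the strength of their synapses. Brain-derived neurotrophic factor, encoded by Bdnf, binds the tyrosine kinase receptor TrkB (Ntrk2), and neurotrophin-3, encoded by Ntf3, prefers TrkC (Ntrk3). The p75 receptor, encoded by Ngfr, binds all neurotrophins as well as their uncut precursors and can pair with Trk receptors or signal alone. Ret is the signaling receptor for glial cell line-derived neurotrophic factor and its relatives, which it meets through a co-receptor such as GFRα1. Baroreceptor afferents that end in the NTS are a known source of brain-derived neurotrophic factor, and Ret is known for its high level in motor neurons. Bdnf is transcribed from several alternative starts, and Ntrk2 gives a full-length kinase receptor in neurons and a truncated one in astrocytes. Counts per gene sum over these starts and forms.

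Start-site windows were looked up for the 7 genes among 33469 windows from RefSeq (build GRCr8, 250 bases before to 50 after a gene start). There were 6 for Bdnf, 3 for Ntf3, 1 for Gfra1 and 1 for Ret. A cAMP response element was searched as TGACGTCA, which reads the same on both strands, and in the form TCACGTCA, on both strands. TGACGTCA stood in 1.83% of all windows, TCACGTCA in 0.4%, and either in 2.21%. Among the 11 windows of these genes, 1 held a match, the fourth of Bdnf, with its first base at position -38 from the start. The pair of windows below is shown because Bdnf and Ret had opposite and large differences in level between the RVLM and the other regions. The first is chr3:116637608-116637907 on the plus strand and the second chr4:153040507-153040806 on the minus strand, and capitals mark the TCACGTCA match.
Bdnf, window 4: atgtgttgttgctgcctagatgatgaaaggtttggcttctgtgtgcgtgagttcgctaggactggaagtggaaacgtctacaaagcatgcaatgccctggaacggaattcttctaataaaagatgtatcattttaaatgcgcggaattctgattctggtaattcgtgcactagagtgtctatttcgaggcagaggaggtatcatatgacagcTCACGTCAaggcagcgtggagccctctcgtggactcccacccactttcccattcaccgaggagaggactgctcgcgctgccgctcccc
Ret: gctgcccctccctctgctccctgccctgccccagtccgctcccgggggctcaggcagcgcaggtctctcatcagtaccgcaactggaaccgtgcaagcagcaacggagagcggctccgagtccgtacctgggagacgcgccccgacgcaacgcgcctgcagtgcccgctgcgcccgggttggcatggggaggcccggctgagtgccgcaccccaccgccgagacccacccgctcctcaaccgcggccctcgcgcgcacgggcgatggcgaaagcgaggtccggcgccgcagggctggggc
A match is a run of letters and not a site of binding. Which Bdnf start was used could not be read from counts per gene.

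A library held 5904581 to 17889417 assigned counts (median 10143036). Library names end in 1 or 2, a number whose meaning is not given in the sources used here. The ending 2 belongs to all 10-wk libraries, to 3 WKY rats aged 8 wk and to a single SHR at 12 wk and another at 24 wk. The 42 libraries ending in 2 had a median of 14677507 counts and the other 96 a median of 9331634. In 2 CVLM libraries, 1 of each strain, the title gives 8 wk and the age label 10 wk, and they were placed at 8 wk. The labelled regions were checked against genes of their known neurons. Pnmt, which makes adrenaline in the C1 cells, had a median of 19.65 CPM in the RVLM, 41.83 in the CVLM and 3.597 in the NTS and was above 0 in every library. Chat, the cholinergic marker, had a median of 242.8 CPM in the RVLM against 18.47 in the CVLM and 61.04 in the NTS. Th and Dbh, enzymes of catecholamine synthesis, had RVLM medians of 53.23 and 9.547 CPM, below the 134.4 and 67.63 of the NTS and the 138.2 and 85.02 of the CVLM.

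Regional levels were compared within rats. In a joint fit of the 3 regions that blocked on the animal, the NTS and the CVLM differed in 6 of 6 members, where 65.9% of 14043 genes were called. Between the NTS and the RVLM, 5 of 6 members were called, against 72.7% of genes. Between the CVLM and the RVLM it was 6 of 6, against 54% of genes. Regional differences were thus the rule for most genes, and the sizes below are a description of each member. The fit took all genes kept in at least 1 region, and Ntf3 entered it through the NTS alone, where it was highest. It is counted above, and no result is read from its calls. In bulk punches, fewer cells of a type and less RNA per cell cannot be told apart.

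Bdnf was lowest in the RVLM in every rat. Its level was 17.31 ± 3.571 CPM in the NTS, the CVLM had 14.25 ± 2.093 and the RVLM 3.974 ± 1.751 (SD, n = 46 each). Over libraries it ran from 10.97 to 26.91 CPM in the NTS, with a median of 16.83. In the CVLM the range was 9.747 to 18.6 CPM with a median of 14.52, and in the RVLM 1.169 to 8.051 with a median of 3.742. The RVLM libraries did not overlap with those of either other region, and 46 of 46 rats had more Bdnf in the NTS and in the CVLM than in the RVLM. The log2 difference of the NTS minus the RVLM was 2.21 (SE 0.08), a 4.63-fold difference (adjusted p = 1.5e-38 in edgeR), and that of the CVLM minus the RVLM was 1.955 (SE 0.08, adjusted p = 9.0e-35 in edgeR). The NTS exceeded the CVLM by 0.26 on the log2 scale (SE 0.08, adjusted p = 0.0023 in edgeR), in 39 of 46 rats, and these ranges overlapped.

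Ntf3 followed the same order at far lower counts. It had a median of 1.334 CPM in the NTS (0.4077 to 2.62), 0.426 in the CVLM (0 to 1.545) and 0.1339 in the RVLM (0 to 1.191). These are 4 to 44 counts per NTS library, and 0 to 21 and 0 to 11 counts in the CVLM and RVLM. Fewer than 3 counts were found in 12 CVLM libraries and in 28 RVLM libraries. Ntf3 passed the filter in the NTS alone, where it was highest. The differences below are therefore a description, and no support is drawn from their p values. The NTS exceeded the CVLM by 1.46 on the log2 scale (SE 0.21, adjusted p = 4.4e-09 in edgeR) and the RVLM by 2.72 (SE 0.24, adjusted p = 2.8e-17 in edgeR). The CVLM exceeded the RVLM by 1.26 (SE 0.28, adjusted p = 7.5e-05 in edgeR). A rat's NTS held more than its CVLM in 40 of 46 rats and more than its RVLM in 44.

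**Figure D1:**
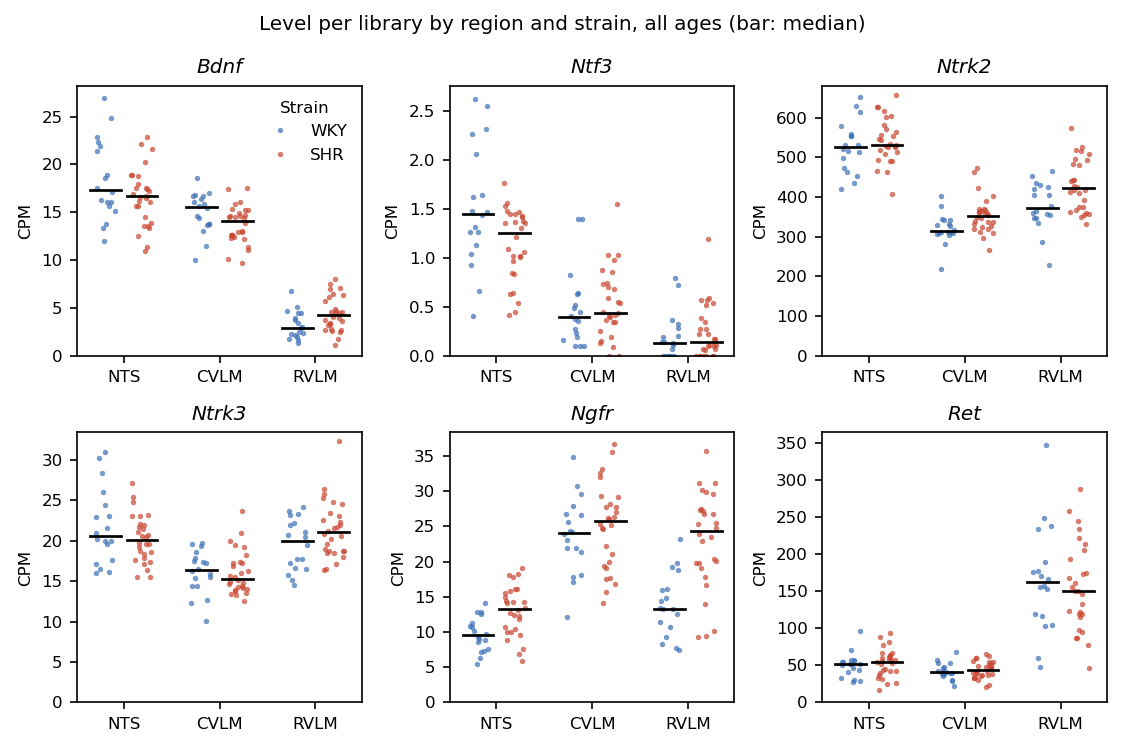
Level in CPM of each of the 6 genes (vertical axes, each from 0) in every library of the NTS, CVLM and RVLM, 1 point per library (WKY blue, n = 18 per region; SHR red, n = 28), with the median of each strain as a bar. Bdnf points of the RVLM (1.169 to 8.051 CPM) lie below all points of the other regions, and Ngfr points of SHRs lie higher than those of WKY rats in the RVLM (medians 24.33 and 13.34 CPM).

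The Trk receptors had smaller differences. Ntrk2 was highest in the NTS, at 536.1 ± 59.69 CPM, lower in the RVLM at 410 ± 67.53 and lowest in the CVLM at 341.7 ± 45.37 (SD, n = 46 each). Its libraries ran from 407.7 to 657.5 CPM in the NTS, from 227.8 to 573.8 in the RVLM and from 218.1 to 473.2 in the CVLM, so that all regions overlapped. Within rats, the NTS was above the CVLM in 46 of 46, with a log2 difference of 0.67 (SE 0.03, adjusted p = 1.0e-31 in edgeR), and above the RVLM in 45 of 46, with 0.40 (SE 0.03, adjusted p = 1.7e-19 in edgeR). CVLM minus RVLM was -0.27 (SE 0.03, adjusted p = 1.1e-11 in edgeR), and only 3 of 46 rats had the opposite order.

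No difference of Ntrk3 between the NTS and the RVLM was called. It had medians of 20.36 CPM in the NTS (15.48 to 30.96), 20.65 in the RVLM (14.49 to 32.28) and 15.75 in the CVLM (10.07 to 23.73). NTS minus RVLM was 0.04 on the log2 scale with a 95% interval from -0.053 to 0.127 (adjusted p = 0.48 in edgeR), and 22 of 46 rats had more in the NTS. The CVLM was lower than both others, with NTS minus CVLM at 0.39 (SE 0.05, adjusted p = 1.2e-11 in edgeR) and CVLM minus RVLM at -0.35 (SE 0.05, adjusted p = 4.9e-10 in edgeR).

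Ngfr had its highest level in the CVLM and its lowest in the NTS. The NTS libraries had a median of 11.61 CPM (5.516 to 19.13), those of the CVLM 24.99 (12.07 to 36.79) and those of the RVLM 19.52 (7.392 to 35.68). No rat had more Ngfr in the NTS than in the CVLM, 0 of 46, and the log2 difference was -1.11 (SE 0.07, adjusted p = 7.7e-26 in edgeR). NTS minus RVLM was -0.67 (SE 0.07, adjusted p = 7.4e-15 in edgeR) and CVLM minus RVLM 0.44 (SE 0.07, adjusted p = 1.3e-08 in edgeR), and the latter depended on the strain, as described below.

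Ret was highest in the RVLM, where Bdnf was lowest, and both were higher in the NTS than in the CVLM. Its median was 155.1 CPM in the RVLM (46.76 to 347.3), 52.75 in the NTS (17.39 to 95.94) and 41.71 in the CVLM (21.41 to 68.62). The RVLM exceeded the NTS in 45 of 46 rats, with NTS minus RVLM at -1.59 (SE 0.09, adjusted p = 2.6e-26 in edgeR). It exceeded the CVLM in 45 of 46 as well, with CVLM minus RVLM at -1.81 (SE 0.09, adjusted p = 6.6e-29 in edgeR). The exception was an SHR in both cases. NTS minus CVLM was 0.22 (SE 0.09, adjusted p = 0.030 in edgeR), in 30 of 46 rats, and this call was lost without the 8-, 12- and 24-wk libraries ending in 2 (adjusted p = 0.075 in edgeR). It was also lost without WKY replicate 3 of 8 wk, 4 of 10 wk, 3 of 12 wk or 2 of 24 wk, each in turn (adjusted p of up to 0.079 in edgeR).

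Markers of motor and cholinergic neurons had the regional order of Ret, and not that of Bdnf or Ngfr. Of the 6 listed genes, 5 were tested and all 5 were lower in the NTS than in the RVLM (median log2 difference -1.95), lower in the CVLM than in the RVLM (median -3.76) and higher in the NTS than in the CVLM (median 1.44), where the medians over all genes lay between -0.01 and 0.01. Their summed level ran from 679.7 to 2628 CPM in the RVLM, from 159.4 to 713.1 in the NTS and from 60.84 to 261.1 in the CVLM. Chat, Slc5a7, Slc18a3, Isl1 and Prph were above 0 in every library, while Mnx1 was at 0 in 31 NTS, 45 CVLM and 45 RVLM libraries. Oligodendrocyte markers were lower in the NTS in 6 of 6 cases, with a median of -0.77 against the CVLM and -0.64 against the RVLM. Over all genes, 65.9% (NTS against CVLM), 72.7% (NTS against RVLM) and 54% (CVLM against RVLM) were called in either direction. By median summed level, other lists shared these orders too. Choroid plexus, leptomeninges and oligodendrocyte precursors ran as Ret did, the last at 46.93 (RVLM), 46.1 (NTS) and 43.04 CPM (CVLM). Serotonergic and ependymal markers ran as Bdnf did. Markers of neurons at large, oligodendrocytes and Schwann cells ran as Ngfr did. The part of these cell types in the levels of Bdnf, Ret and Ngfr was not tested.

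**Figure D2:**
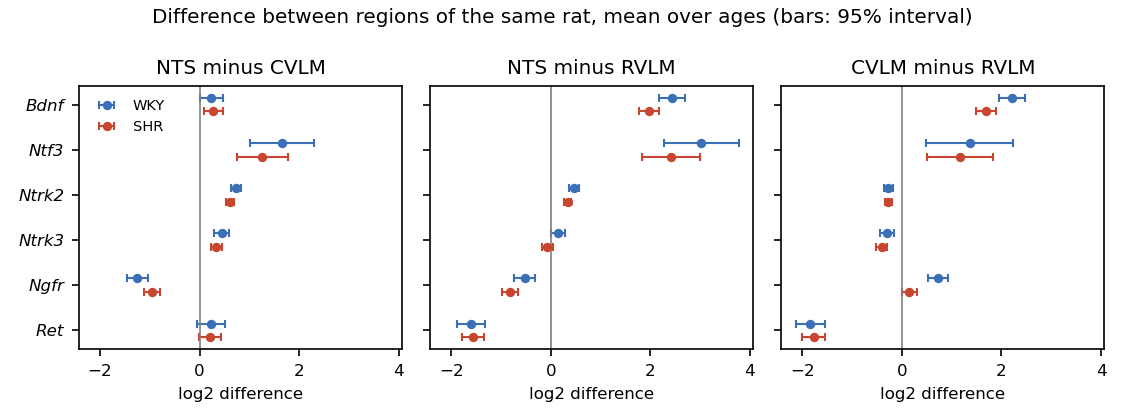
Log2 difference between regions of the same rats for each gene, as the mean over ages in WKY rats (blue) and SHRs (red), with 95% intervals as bars. Bdnf and Ntf3 lie to the right of 0 and Ret to the left in both comparisons with the RVLM, and for Ngfr the CVLM minus RVLM difference is 0.73 in WKY rats and 0.15 in SHRs.

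Differences between the strains were asked of each region as the mean of SHR minus WKY over the ages. In the NTS 1 of 6 members was called, where 11.2% of 13793 genes were, and in the RVLM 1 of 5, where 10.8% of 13411 genes were. The gene was Ngfr in both. In the CVLM no member was called by edgeR, 0 of 5 with 1 at an unadjusted p under 0.05, where 12.3% of 13408 genes were called. DESeq2 and limma voom also called 0 of 5 there. A count of 1 among 5 or 6 is near the share over all genes, and nothing about the set is read from it.

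In the RVLM, Ngfr was higher in SHRs at a median of 24.33 CPM (9.253 to 35.68, n = 28) against 13.34 in WKY rats (7.392 to 23.22, n = 18). The log2 fold change was 0.71 (SE 0.14), a 1.63-fold level (adjusted p = 0.00025 in edgeR). Of the 28 SHRs, 25 lay above the WKY median and 16 above every WKY rat. Such medians and counts pool ages that make up unequal shares of the strains, while the fold change weights each age alike. In the NTS the medians were 13.27 CPM (5.916 to 19.13) and 9.567 (5.516 to 14.06), with a log2 fold change of 0.42 (SE 0.12, adjusted p = 0.017 in edgeR). There 23 of 28 SHRs lay above the WKY median and 13 above all WKY rats. The CVLM levels were 25.75 CPM in SHRs (14.09 to 36.79) and 24.08 in WKY rats (12.07 to 34.83), with a log2 fold change of 0.11 and a 95% interval from -0.095 to 0.316 (adjusted p = 0.61 in edgeR).

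By age, 2 of 25 values were called in the RVLM, both at 8 wk, where 9.78% of genes were called. At 10, 12, 16 and 24 wk, 2.3%, 1.7%, 1.65% and 2.24% of genes were called and 0 of 5 members at each, with 1 member at an unadjusted p under 0.05, Ngfr at 24 wk. Ngfr at 8 wk in the RVLM was 19.84, 17.78, 27.41, 31.18 and 19.15 CPM in the 5 SHRs and 16.1, 13.31, 7.392, 10.66 and 8.254 CPM in the 5 WKY rats. The strains did not overlap at this age. The log2 fold change was 1.04 (SE 0.29, adjusted p = 0.018 in edgeR). The first 2 of the WKY libraries have names ending in 1, as all 5 of the SHRs do, and the other 3 end in 2. With this number as a term of the model the value was 0.89 (adjusted p = 0.15 in edgeR), and without the 8-, 12- and 24-wk libraries ending in 2, which left 2 WKY rats at 8 wk, it was 0.61 (adjusted p = 0.67 in edgeR). These fits called 2.77% and 1.72% of RVLM genes at 8 wk. The call was also lost without WKY replicate 3 (adjusted p = 0.074 in edgeR) and without SHR replicate 4 of this age.

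**Figure D3:**
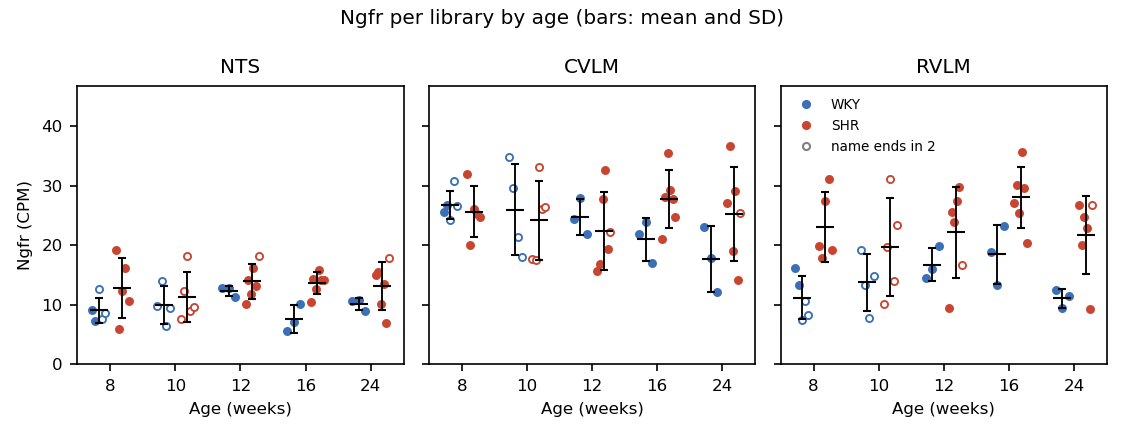
Ngfr in CPM (vertical axis, shared) against age in weeks in the NTS, CVLM and RVLM, 1 point per library, with mean and SD of each group as black bars (WKY blue, n = 3 to 5; SHR red, n = 5 or 6; open points are libraries whose name ends in 2). In the RVLM at 8 wk the SHR points (17.78 to 31.18 CPM) lie above all WKY points (7.392 to 16.1), and at every age in the RVLM and NTS the SHR mean lies above the WKY mean.

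At the later ages, Ngfr in the RVLM had mean levels of 13.78, 16.76, 18.47 and 11.11 CPM in WKY rats and 19.72, 22.17, 28.06 and 21.75 CPM in SHRs at 10, 12, 16 and 24 wk. At 24 wk the WKY rats had 12.54, 9.358 and 11.42 CPM, and the 6 SHRs ran from 9.253 to 26.74 with a median of 23.83. All but 1 of these SHRs lay above every WKY rat, and the log2 fold change was 0.97 (SE 0.33, adjusted p = 0.14 in edgeR). At 16 wk the WKY rats had 18.88, 13.31 and 23.22 CPM and the SHRs 20.4 to 35.68 with a median of 28.36, a log2 fold change of 0.60 (SE 0.32, adjusted p = 1 in edgeR). The values at 10 and 12 wk were 0.51 (SE 0.30) and 0.41 (SE 0.32), neither called.

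In the NTS by age, 0 of 30 values were called by edgeR, DESeq2 or limma voom, with 4 at an unadjusted p under 0.05 in edgeR. The share of all genes called was 5.79%, 4.44%, 3.1%, 1.73% and 2.46% in the order of the ages. Ngfr came nearest to a separation at 16 wk, with 5.516, 7.167 and 10.11 CPM in WKY rats and 10.41 to 15.9 in SHRs (median 14.15). The groups did not overlap, and the log2 fold change was 0.84 (SE 0.29, adjusted p = 0.23 in edgeR). In the CVLM by age, 0 of 25 values were called by these 3 tools, with 1 at an unadjusted p under 0.05, while 7.64%, 3.18%, 2.62%, 2.27% and 7.13% of genes were called. Ngfr fold changes in the CVLM ran from -0.16 at 12 wk to 0.48 at 24 wk on the log2 scale, none called.

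Ntrk2, the receptor for brain-derived neurotrophic factor, was the other gene called at 8 wk in the RVLM. Its levels were 333.1, 418.9, 525.3, 409.3 and 481.3 CPM in SHRs and 377.9, 286.8, 227.8, 347.9 and 354.9 CPM in WKY rats. All SHRs but the first exceeded every WKY rat, and the log2 fold change was 0.43 (SE 0.12, adjusted p = 0.020 in edgeR). The call was lost with the name number as a term (0.39, adjusted p = 0.14 in edgeR), without the libraries ending in 2 (0.35, adjusted p = 0.38 in edgeR), without WKY replicate 3 (adjusted p = 0.086 in edgeR) and without SHR replicate 3 or 5 of this age. With that term and without those libraries, 2.77% and 1.72% of genes were called. As the mean over ages, Ntrk2 was 0.15 higher in SHRs in the RVLM (SE 0.06, adjusted p = 0.099 in edgeR), 0.13 in the CVLM (SE 0.05, adjusted p = 0.098 in edgeR) and 0.02 in the NTS (SE 0.05, adjusted p = 0.87 in edgeR), none called.

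**Figure D4:**
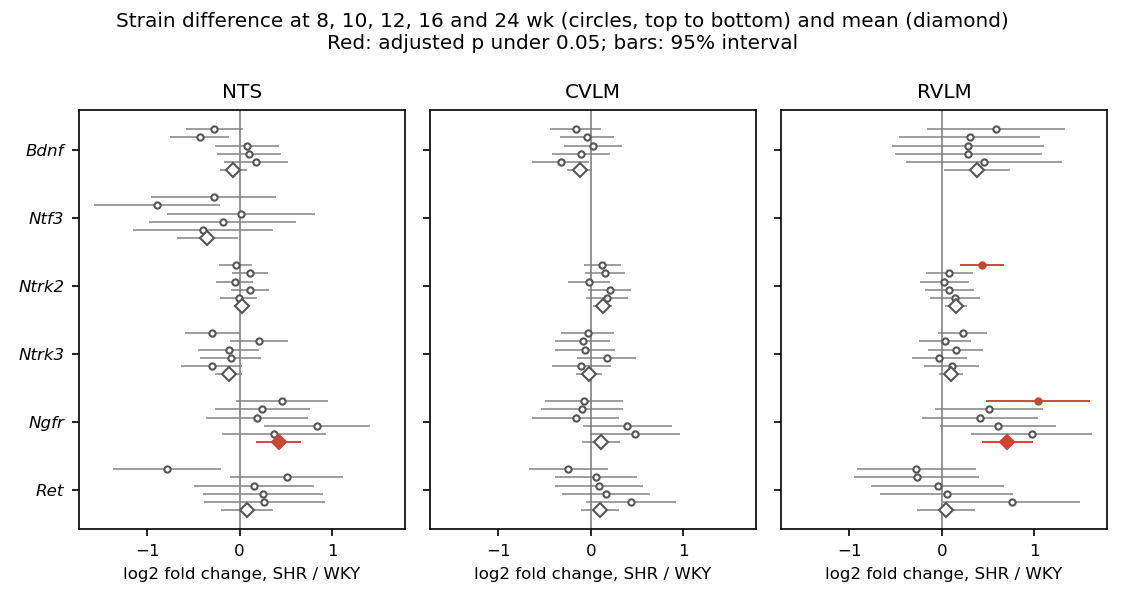
Log2 fold change of SHR over WKY (horizontal axis) for each gene in the 3 regions at each age (circles, from 8 wk at the top to 24 wk) and as the mean over ages (diamonds), with 95% intervals; red marks an adjusted p under 0.05. Red symbols are Ngfr in the NTS (mean 0.42), Ngfr in the RVLM (mean 0.71, and 1.04 at 8 wk) and Ntrk2 in the RVLM at 8 wk (0.43).

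The ligands gave no called strain difference. Bdnf as the mean over ages was 0.38 on the log2 scale in the RVLM (SE 0.18, adjusted p = 0.21 in edgeR), -0.12 in the CVLM (SE 0.07, adjusted p = 0.30 in edgeR) and -0.07 in the NTS (SE 0.08, adjusted p = 0.72 in edgeR). RVLM medians over the pooled ages were 4.265 CPM in SHRs and 2.967 in WKY rats, and 21 of 28 SHRs lay above the WKY median. Ntf3 in the NTS was -0.35 (SE 0.17, adjusted p = 0.22 in edgeR), with medians of 1.258 CPM in SHRs and 1.45 in WKY rats. Ntrk3 and Ret had means over ages between -0.12 and 0.10, with adjusted p values of 0.37 or more in edgeR. The 95% intervals of Ret reached from -0.20 to 0.36 in the NTS, from -0.11 to 0.31 in the CVLM and from -0.27 to 0.35 in the RVLM, wider than those of Ntrk3.

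Whether the strain difference changed with age was tested for the 16 pairs of gene and region that passed the filter, and none was called by edgeR, DESeq2 or limma voom. Only Ret in the NTS had an unadjusted p under 0.05 (adjusted p = 0.40 in edgeR). Of all genes, 0.0145% (NTS), 0.0224% (CVLM) and 0.00746% (RVLM) were called. Ret levels in the NTS at 8 wk were 24.99, 32.99, 17.39, 42.29 and 52.28 CPM in SHRs and 28.4, 55.8, 95.94, 52.09 and 52.22 in WKY rats, and the log2 fold change was -0.79 (SE 0.30, adjusted p = 0.099 in edgeR). At the other ages Ret in the NTS had fold changes of 0.16 to 0.51, none called. The 5 motor and cholinergic markers had a median of -0.92 in the NTS at 8 wk, 1 of them called lower in SHRs, and their part in the Ret value was not tested.

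Whether the strain difference depended on the region was tested in the fit over all libraries. Of 18 values, 1 was called, and the shares over all genes were 0.449% for the NTS against the CVLM, 1.82% for the NTS against the RVLM and 0.32% for the CVLM against the RVLM. The called value was Ngfr, whose strain difference was 0.58 smaller in the CVLM than in the RVLM on the log2 scale (difference -0.58, SE 0.13, adjusted p = 0.012 in edgeR). In WKY rats the CVLM exceeded the RVLM by 0.73 (SE 0.10, adjusted p = 7.4e-09 in edgeR), in 17 of 18 rats. In SHRs it did so by 0.15 (SE 0.08, adjusted p = 0.12 in edgeR), in 17 of 28 rats. The call was lost without the 8-, 12- and 24-wk libraries ending in 2 (-0.49, adjusted p = 0.11 in edgeR), and without WKY replicate 2 of 16 wk (adjusted p = 0.068 in edgeR).

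For Bdnf the strain differences in the NTS and CVLM lay 0.47 (SE 0.17) and 0.51 (SE 0.17) below that in the RVLM on the log2 scale, with adjusted p values of 0.15 and 0.33 in edgeR. NTS minus RVLM was 2.44 in WKY rats (SE 0.13) and 1.98 in SHRs (SE 0.10), each called with an adjusted p of 5.3e-28 or less in edgeR. For Ntrk2, CVLM minus RVLM was -0.27 in both strains (SE 0.05 and 0.04), and the difference of these was -0.003 with a 95% interval from -0.128 to 0.123.

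Change with age was tested within each strain over the 5 ages. In WKY rats 1 of 16 values was called, Bdnf in the NTS, where 12.5% (NTS), 22.2% (CVLM) and 6.79% (RVLM) of genes were called. The 5 WKY rats of 8 wk had 21.4, 21.9, 17.08, 18.92 and 22.84 CPM and the 4 of 10 wk 26.91, 18.58, 22.35 and 24.86. From 12 wk on the levels were lower, at 17.53, 13.32 and 13.75 CPM at 12 wk, 11.98, 16.06 and 16.08 at 16 wk, and 15.1, 16.27 and 15.71 at 24 wk. All rats of 10 wk exceeded all older ones, and at 8 wk only the rat with 17.08 CPM lay within their range (adjusted p = 0.019 in edgeR). The summed level of 7 neuron genes in these libraries was 4240 to 5067 CPM at 10 wk. It reached 3461, 3617 and 4095 CPM at 12, 16 and 24 wk, and ran from 2867 to 4736 at 8 wk. The part of neurons in the Bdnf level was not tested. All 10-wk libraries and 3 of those at 8 wk have names ending in 2. The 2 that end in 1 had 21.4 and 21.9 CPM. With this number as a term the adjusted p was 0.68 in edgeR, in a fit that called 0.0435% of NTS genes over age in WKY rats. Since the number covers all 10-wk libraries, that fit could hardly separate it from age for any gene. The adjusted p in edgeR was 0.057 without WKY replicate 1 and 0.052 without replicate 4 of 10 wk.

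**Figure D5:**
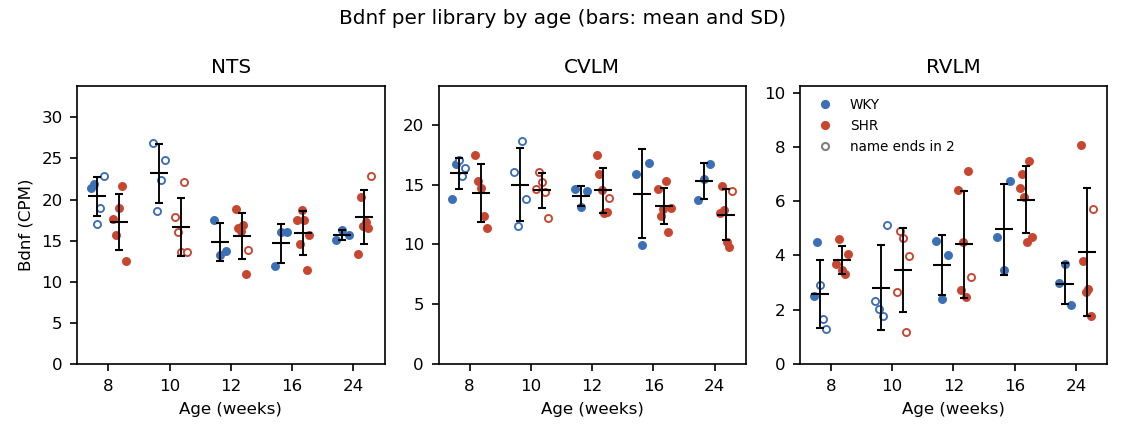
Bdnf in CPM (vertical axes, each from 0 and with its own scale) against age in weeks in the NTS, CVLM and RVLM, 1 point per library, with mean and SD of each group as black bars (WKY blue, n = 3 to 5; SHR red, n = 5 or 6; open points are libraries whose name ends in 2). WKY points of the NTS lie between 17.08 and 26.91 CPM at 8 and 10 wk and between 11.98 and 17.53 from 12 wk on.

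SHRs had mean Bdnf levels in the NTS of 17.28, 16.65, 15.56, 15.9 and 17.84 CPM in the order of the ages (adjusted p = 0.81 in edgeR). No member was called over age in SHRs by edgeR, 0 of 16 with 2 at an unadjusted p under 0.05, where 18.7% (NTS), 20% (CVLM) and 14.1% (RVLM) of genes were called. DESeq2 and limma voom called 1, Ret in the NTS (adjusted p = 0.022 in DESeq2 and 0.053 in edgeR). They called 24.2% and 15.6% of the genes of the NTS. Ret means there were 33.99, 68.34, 58.33, 58.84 and 46.31 CPM in SHRs and 56.89, 49.71, 52.78, 48.95 and 38.39 CPM in WKY rats. In the RVLM of WKY rats, Ntrk2 means were 319.1, 350.9, 410.6, 425.8 and 430.1 CPM (adjusted p = 0.074 in edgeR) and Ret means 169.8, 247.5, 166.6, 113.2 and 94.34 CPM (adjusted p = 0.085 in edgeR). Both were called by DESeq2, with adjusted p values of 0.032 and 0.035, where it called 13.9% of all genes.

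Markers of some other cells also differed between the strains, in part in other regions than Ngfr. Of 5 genes of pericytes and smooth muscle, 4 were tested, and 3 of 4 were higher in SHRs in the RVLM as the mean over ages, 2 in the NTS and 1 in the CVLM. Their median log2 fold changes were 0.39, 0.25 and 0.29, against 0.009, 0.010 and -0.003 over all genes. Their summed level in the RVLM ran from 43.47 to 87.7 CPM in SHRs (median 63.09) and from 34.86 to 74.12 in WKY rats (median 46.96). At 8 wk in the RVLM it was 61.21 to 87.7 CPM in SHRs and 42.26 to 60.74 in WKY rats, without overlap, as for Ngfr. In the CVLM at 8 wk it was 57.61 to 77.68 CPM in SHRs and 36.28 to 54.54 in WKY rats, again without overlap, while Ngfr means there were 25.61 and 26.78 CPM. Pdgfrb, Rgs5, Tagln and Myh11 were above 0 in every library, and Acta2 was at 0 in 14 to 17 libraries of each region. Astrocyte markers, of which 2 of 7 were higher in SHRs in the RVLM at 8 wk with a median of 0.35, had 1 of 7 called there as the mean over ages. Of 6 oligodendrocyte genes, 3 were lower in SHRs in the RVLM, 4 in the CVLM and 1 in the NTS. Over all genes, 10.8% (RVLM), 12.3% (CVLM) and 11.2% (NTS) were called in either direction as the mean over ages, and 9.78% in the RVLM at 8 wk. Genes of noradrenergic and adrenergic neurons had a median of 0.57 in the RVLM, 0 of 5 called, with summed levels of 53 to 337.3 CPM in SHRs and 26.91 to 184.3 in WKY rats. The part of these cells in the Ngfr difference was not tested.

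The wider pathway was described by a list of 87 further genes of ligands, receptors, convertases, adaptors, kinases and targets, of which 85 had a row. As the mean over ages in SHRs, 3 were higher and 4 lower of 70 tested in the NTS, 4 and 5 of 71 in the CVLM, and 3 and 4 of 71 in the RVLM. These counts are near the shares over all genes, which were 11.2%, 12.3% and 10.8%. The list's medians were 0.05, 0.02 and 0.04 on the log2 scale. Among the 10 receptors and co-receptors tested in each region, 2 were higher in SHRs in each region and none was lower. Lingo1, a partner of p75 in the Nogo receptor complex, was higher by 0.56 in the NTS (SE 0.09), 0.40 in the CVLM (SE 0.09) and 0.44 in the RVLM (SE 0.11), with adjusted p values of 7.0e-06, 0.0015 and 0.0042 in edgeR. Sorcs2, a receptor for neurotrophin precursors, was higher by 0.31 in the NTS (SE 0.09, adjusted p = 0.013 in edgeR).

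Downstream of the receptors, a pair of adaptor genes was lower in SHRs in all 3 regions. Pik3r1, the regulatory subunit of phosphoinositide 3-kinase, had log2 fold changes of -1.44, -1.501 and -1.54 in the NTS, CVLM and RVLM (SE 0.06 each, adjusted p of 2.0e-22 or less in edgeR). Traf6, a ubiquitin ligase that binds p75, had -0.82, -0.72 and -0.79 (SE 0.08, 0.09 and 0.09, adjusted p of 5.9e-08 or less in edgeR). Of the other genes named by size, the differences were those of Gab1 (0.48) and Map2k1 (-0.17) in the NTS, Spry4 (0.37) and Etv4 (-0.33) in the CVLM, and Sh2b2 (0.62) and Etv4 (-0.42) in the RVLM, with adjusted p values of 0.048 or less in edgeR. Of the 34 adaptors and kinases tested, 31 to 32 were not called in any one region.

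Regional differences of the list were larger. Of 72 genes tested, 21 were higher and 23 lower in the NTS than in the CVLM, 22 and 39 in the NTS than in the RVLM, and 20 and 25 in the CVLM than in the RVLM. Over all genes 65.9%, 72.7% and 54% were called in these comparisons, so that regional calls were the rule beyond the list too. Gfral, the receptor of growth differentiation factor 15, which signals with Ret and is known from the area postrema and NTS, was higher in the NTS by 2.46 against the CVLM and 2.38 against the RVLM (SE 0.13 each). Rtn4r, the Nogo receptor, was lower in the RVLM, with NTS minus RVLM at 1.47 (SE 0.15) and CVLM minus RVLM at 1.74 (SE 0.14). Of enzymes that cut neurotrophin precursors, Mmp3 was lower in the NTS, with log2 differences of -1.97 (SE 0.23) against the CVLM and -2.85 (SE 0.20) against the RVLM. It passed the filter in the RVLM alone, where it was highest, so its differences are a description and no support is drawn from them. Pcsk5 exceeded its RVLM level in the NTS by 1.503 (SE 0.10). For Shc1, an adaptor of Trk receptors, CVLM minus RVLM was -1.12 (SE 0.05). These values had adjusted p values of 2.4e-12 or less in edgeR.

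Spread between rats of a group differed among the members. The pooled coefficient of variation was lowest for Ntrk2, at 10.22% (NTS), 12.08% (CVLM) and 13.07% (RVLM). For Ntrk3 it was 14.76% to 16.5% and for Ngfr 23.51% to 30.14%. Bdnf varied by 16.89% in the NTS and 14.41% in the CVLM and by 39.35% in the RVLM, where libraries held 16 to 91 counts. Ret varied by 31.57%, 23.11% and 34.91% in the NTS, CVLM and RVLM at 156 or more counts per library, and Ntf3 by 35.97% in the NTS.

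Genes whose pattern was most like a member's were listed by Pearson correlation, as a description without a test. Over the mean log2 levels of the 30 groups of region, strain and age, which mostly reflect the regions, Bdnf was most like Hoxc4 (r = 0.985), Galnt14 (0.984) and Necab1 (0.979). Ret was most like Slc29a4 (0.968), Gpsm1 (0.966) and Lrrc8c (0.964), and Ntf3 like Gcg (0.946), Fam107a (0.928) and Calb1 (0.927). Ntrk2 was most like Cacna1g (0.953), Steap3 (0.946) and Chrna3 (0.945), Ntrk3 like Rbms3 (0.898), Pak3 (0.880) and Ablim3 (0.866), and Ngfr like Enpep (0.914) and Papss2 (0.909). Among the members, Bdnf and Ret had r = -0.906 and Ntrk2 and Ntrk3 r = 0.796 over these 30 points.

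Deviations of the libraries from their group means, which share depth and RNA quality within a library, gave other neighbors. Ret was most like Sarm1 (r = 0.879), Ap3d1 (0.877) and Ahcyl2 (0.872), and Ntrk2 like Scd2 (0.846), Zbtb20 (0.834) and Epas1 (0.832). Bdnf was most like Dok5 (0.669), with LOC100912195 at 0.586, Ntrk3 like Ankrd17 (0.646), Arhgap35 (0.627) and Mycbp2 (0.609), and Ngfr like Tspan9 (0.504), Zfp512 (0.504) and Ptpn5 (0.495). Ntf3 reached no more than 0.319, with Plk2. Among the members the highest value was that of Ntrk2 with Ntrk3, at 0.499, and Bdnf and Ret had -0.260.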

How the data were processed

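RNA-seq libraries of NTS, CVLM and RVLM punches were analysed for 46 rats. Per the labels and methods, the authors assigned reads to genes with RSEM and deposited expected counts per gene that are not normalized. Their methods name ComBat_seq, and whether it was applied to the tables is not stated; 5.023%, 4.953% and 4.879% of the deposited expected counts in the NTS, CVLM and RVLM were not whole (tolerance 0.001), and 0% of those of the 6 genes. In 2 CVLM libraries the title (8 wk) and the age label (10 wk) differed, and the title was followed.

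Counts were rounded and analysed in R 4.3.3 with edgeR 4.0.16 (TMM, robust quasi-likelihood fit), limma 3.58.1 and DESeq2 1.42.0. A gene was kept in a region if its largest rlog value reached 3.5, which left 13793, 13408 and 13411 genes, and 14043 in at least 1 region. A fit per region held 10 groups of strain and age. Regions were compared in 1 fit with the animal as a block. Intervals are 1.96 standard errors. Replicates of a group are separate rats. No pair of libraries within a group (270 pairs) agreed within sampling noise, with a chi-square per gene of 5.07 or more. Scripts were tested on simulated data. Correlations used log2(CPM + 0.5) and genes with a mean of at least 5 CPM. The members and lists were chosen with earlier results of these data known. All members were named, and of the pathway list up to 6 called genes per region and up to 4 per pair of regions with the largest change. Some genes that these rules name are not reported here. Alternatives changed the tool, size factors, filter, threshold, name number, blocks and samples. Levels were not divided by gene length, so genes were not compared with each other.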

Additional observations from a re-analysis of the deposited data

Results flagged for a closer look

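Of 126 groups of 4 to 6 libraries checked gene by gene, 4 held a library that stood apart from the rest of its group by Dixon's test, where chance gives about 1 in 20. Bdnf in the RVLM was 5.133 CPM in WKY replicate 4 of 10 wk, and the nearest of the other 3 had 2.331. Ntf3 in the CVLM was 1.392 CPM in the same rat, with the nearest at 0.3598. Ntf3 in the NTS was 0.4475 CPM in SHR replicate 5 of 10 wk, below the nearest at 1.013. Ntrk2 in the NTS was 407.7 CPM in SHR replicate 1 of 10 wk, below the nearest at 513.9. All 4 are at 10 wk, where every library name ends in 2.

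The strain difference of Ngfr differed between regions by the test of that difference, with CVLM minus RVLM at -0.5772 on the log2 scale (SE 0.13, adjusted p = 0.012 in edgeR). Levels in WKY rats and SHRs had medians of 24.08 and 25.75 CPM in the CVLM and of 13.34 and 24.33 CPM in the RVLM.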

How the results depend on the processing

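The Ngfr strain difference as the mean over ages kept its direction and its call in the 8 other settings run for each region, at 0.40 to 0.44 in the NTS (adjusted p of 0.037 or less) and 0.62 to 0.72 in the RVLM (adjusted p of 0.0036 or less), the stricter threshold apart. Single rats were left out in turn only from groups of up to 5, 28 rats in all. The Ngfr difference was then 0.37 to 0.47 and 0.66 to 0.75, called each time. SHRs of 12, 16 and 24 wk, in groups of 6, were not left out. A stricter threshold asked for an adjusted p up to 0.01 with a log2 difference of 1 or more. The counts of called members were then 0 for the mean strain difference in the NTS and in the RVLM. They were 0 by age in the RVLM and 0 for strain by region. Between regions they were 2, 3 and 3 for NTS against CVLM, NTS against RVLM and CVLM against RVLM, each with Ntf3 among them. Ntf3 passed the filter in the NTS alone, where it was highest, and no result is read from its calls. The shares of all genes at this threshold are not given here. By age in the RVLM, 0 were called with the name number as a term, with each age fitted alone, or without the 8-, 12- and 24-wk libraries ending in 2, an alternative chosen after seeing the data. Of all genes in the RVLM at 8 wk, 2.77%, 1.67% and 1.72% were called in these settings, against 9.78% as reported above. Strain by region lost its call without the 8-, 12- and 24-wk libraries ending in 2 (0). For the CVLM against the RVLM, 0.299% of genes were called without them and 0.32% with them. Change with age in WKY rats gave 3 with DESeq2 and 0 with the name number as a term. Over all genes of the NTS, CVLM and RVLM, DESeq2 called 19%, 26.3% and 13.9%. With the name number as a term, 0.0435%, 0.403% and 0.0447% were called, against 12.5%, 22.2% and 6.79% as reported above. The member counts moved with these shares, and nothing about the members is read from them. Change with age in SHRs gave 1 with DESeq2, with limma voom, without the libraries ending in 2 and without those with conflicting labels. In the NTS, the first of these settings called 24.2%, 15.6% and 28.7% of genes, against 18.7% as reported above. Without the conflicting labels, 23.6% of CVLM genes were called, against 20%. The causes were not tested. In fits that each left out 1 of those 28 rats, counts ran from 0 to 1 by age in the NTS and for the mean in the CVLM. They ran from 1 to 2 for the mean in the RVLM and from 0 to 3 by age in the RVLM. Over age they ran from 0 to 3 in WKY rats and from 0 to 2 in SHRs, and for strain by region from 0 to 2. The shares of all genes in these fits are not given here. No called value changed sign in any setting. Among uncalled values, 26 of 949 did, with a log2 size of at most 0.28. With 3 WKY rats at 12 wk and later and 16 to 91 Bdnf counts per RVLM library, small differences there could be missed.

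Replicate numbers are shared between strains and served as a block only in 1 alternative. The 54 pairs of same-numbered libraries had correlations of their deviations from -0.3735 to 0.5846 (median 0.1687), 33 above 0.1 and 12 below minus 0.1. In 20 pairs the correlation was the highest with the own number. Each WKY library was set against 5 or 6 SHR libraries, and the number of such pairs due to chance was not worked out. The pairs come from 18 WKY rats, each counted in every region. At 8 wk the replicate numbers of the WKY rats are not the rat numbers in their library names. More pairs lay above 0.1 than below minus 0.1, and whether the replicate numbers mark something shared between the strains was not tested. With the replicate block, 1 member was called over age in SHRs in place of 0, and no other count of members changed. Over all genes of the NTS, 28.9% were called over age in SHRs with this block and 18.7% without it. Without the animal as a block over the regions (no replicate block), 0 values were called for strain by region in place of 1 (Ngfr -0.59, adjusted p = 0.19 in edgeR). The region counts, which include Ntf3, stayed at 6, 5 and 6, where 61.4%, 69.2% and 48.8% of genes were called.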
